A study of Mus musculus with 30 samples.

Results

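At embryonic day 12 (E12) the presumptive retinal pigmented epithelium (pRPE) of the dorsal optic cup runs on into the dorsal optic stalk (OS), and the comparison here asks which transcripts differ between these neighbouring tissues. Of the 30 Geo-seq libraries of control mouse embryos at E12, 14 were used. They were picked by their tissue label and not by any measured value: 7 dorsal pRPE libraries, of which 3 were distal and 4 proximal, and 7 dorsal OS libraries, of which 3 were distal, 2 middle and 2 proximal. In Geo-seq, a small area of a frozen section is cut out with a laser and its RNA is amplified and sequenced, so that each library stands for one position. The study's batch label put 3 libraries of each tissue in batch A and 4 of each in batch B. All 14 libraries carry the genotype label Control. By the methods, controls were littermates without the Dct-Cre transgene from crosses of mice with loxP-flanked Baf155 (Smarcc1) or Baf170 (Smarcc2) on a C57Bl6/J background, so a control may still carry loxP alleles. The sections came from 4 control embryos, fewer than the 7 libraries of each tissue, so some libraries of a tissue share an embryo. A p-value over libraries that counts them as independent can be too small on that account. Both tissues also came from the same embryos, and the net effect of this sharing on the p-values was not tested.

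The RPE is a single sheet of pigmented cells that covers the back of the retina and supports it. In the embryo its fate is set by the transcription factors Mitf and Otx2, which switch on the genes of the melanosome, the organelle in which melanin is made. The OS joins the optic cup to the forebrain. Cells of the stalk later come to express Pax2, surround the axons of retinal ganglion cells and give rise to astrocytes of the optic nerve. Between these 2 domains Pax6 and Pax2 limit each other, and the OS lies closer to the midline source of Shh, while BMP and Wnt signals act on the dorsal RPE.

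In edgeR's test with batch as a covariate, no gene passed the threshold between dorsal pRPE and dorsal OS, whereas DESeq2 called 110 genes and limma voom 41. Among genes with a count in at least 12 of the 14 libraries, the smallest unadjusted p belonged to Vim on the OS side, which encodes the intermediate filament of neural progenitors and glia, and to Txn1, the antioxidant thioredoxin, on the pRPE side. Levels are given as CPM, a count relative to the library's effective size, which is its summed counts multiplied by edgeR's TMM normalization factor. Vim reached 656, 874 and 1116 CPM (lowest, median and highest of the 7 pRPE libraries). In OS it had 1894, 1099 and 950.1 CPM in distal, 2883 and 2411 CPM in middle and 1091 and 2950.5 CPM in proximal libraries. The values of the tissues overlapped only between the highest pRPE library (replicate 2) and the 3 lowest OS libraries. Pigment genes such as Slc45a2 and Gpnmb, which encode melanosome proteins, were counted in both tissues, and Pax2 was counted in the middle and proximal OS but in no library of the distal OS and at 4 counts in 1 pRPE library. In such pooled tissue, fewer cells of a type and less RNA per cell cannot be told apart.

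The libraries differed in how many genes they held. A gene was taken as detected with at least 1 count. The pRPE libraries had from 3427 to 9886 detected genes (median 7176). The OS libraries had 4158, 3505 and 6769 in the distal, 3706 and 9315 in the middle and 4135 and 2693 in the proximal section (median 4135). The means of 6790 ± 2514 in pRPE and 4897 ± 2322 in OS (SD, n = 7 each) differed by 1893 genes. This difference was no larger than the spread in each tissue (p = 0.175 by exact permutation, two-sided, over 3432 assignments; adjusted p = 0.7 over the 4 library measures, over libraries that share embryos). It was 1597 genes in batch A alone (exact permutation p = 0.4, n = 3 each; 3 against 3 cannot go below 0.1). In batch B alone it was 2114.5 genes (exact permutation p = 0.286, n = 4 each). Total counts (1767804 to 6041021 in pRPE, 1965657 to 5400977 in OS), the share of mitochondrial transcripts (30.4% to 55.4% and 37.4% to 49.2%) and the share held by the 50 most counted genes (54.3% to 72.8% and 50.4% to 64.03%) overlapped between the tissues, with adjusted exact permutation p-values of 0.739, 0.739 and 0.881.

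**Figure D1:**
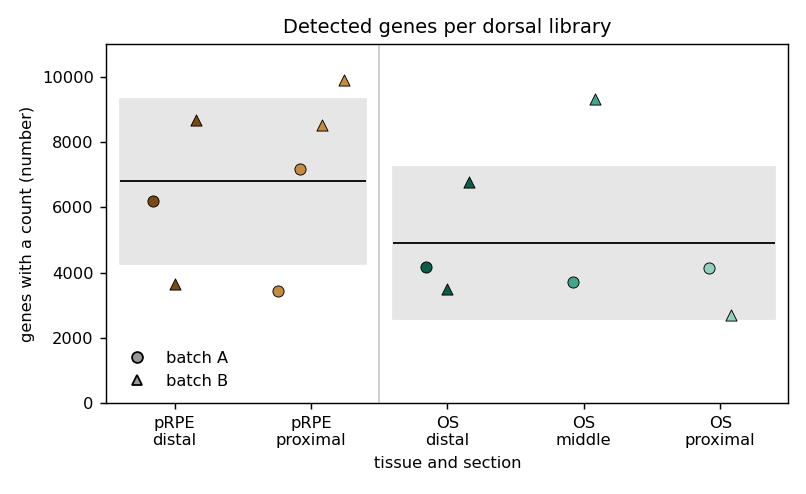
Number of genes with at least 1 count in each dorsal library (y axis), by tissue and section (x axis), with circles for batch A and triangles for batch B; the line is the mean of the 7 libraries of a tissue and the grey band its SD. Middle OS replicate 84 (9315 genes) lies among the fullest pRPE libraries, while pRPE replicates 2 (3427) and 61 (3643) lie among the OS libraries.

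Of the 56484 genes listed in the table, 34953 were at 0 throughout the 14 libraries. Of the rest, 6646 passed the filter of the methods (more than 10 counts in at least 3 of the 14 libraries). Among the values of the tested genes, 41.7% were 0. In edgeR's quasi-likelihood test with batch as a covariate, 0 of 6646 genes (0.0%) had a Benjamini-Hochberg adjusted p under 0.05 with a log2 fold change beyond 0.58, and the smallest adjusted p was 0.0824. Before adjustment, 466 genes (7.01%) had a p under 0.05 with the higher level in pRPE and 60 (0.903%) with the higher level in OS. These p-values are over libraries that share embryos. The count on the pRPE side was 858 without middle OS replicate 84, the OS library with most detected genes, and 747 without distal OS replicate 83. Of the genes called by the other tools, 99 of 110 (DESeq2) and 40 of 41 (limma voom) were higher in pRPE. The surplus on the pRPE side moved with the number of detected genes: 4516 tested genes were counted in more pRPE than OS libraries and 662 in more OS libraries. With the log2 number of detected genes as a further covariate, 307 genes on the pRPE side and 284 on the OS side had a p under 0.05 before adjustment. The median log2 fold change over all tested genes went from 0.42 to -0.17, and without 1 library it ranged from 0.28 (without pRPE replicate 32) to 0.70 (without OS replicate 84). The part of detection in any single difference was not tested.

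The share of genes with a small p also differed with how often a gene was counted. Among the 2612 tested genes with a count in fewer than 7 of the 14 libraries, 14.4% were higher in pRPE at an unadjusted p under 0.05 and 1.65% higher in OS (edgeR quasi-likelihood test), with a median log2 fold change of 1.02. Among the 1615 genes with a count in at least 12 libraries the shares were 1.98% and 0.557%, with a median of 0.20. Among the 720 genes with a count in all 14 libraries they were 4.03% and 0.556%, with a median of 0.21. With detected genes as a covariate, 38 of these 720 genes were higher in pRPE and 14 higher in OS at an unadjusted p under 0.05 (edgeR). When this filter, chosen after the data were seen, was set before the fit, 1704 genes were tested. The counts were then 41 on the pRPE side and 45 on the OS side, with a median of 0.04, so the surplus on the pRPE side was not seen with that filter. Of the tested genes, 322 had no count in any dorsal OS library and 14 had none in any dorsal pRPE library.

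**Figure D2:**
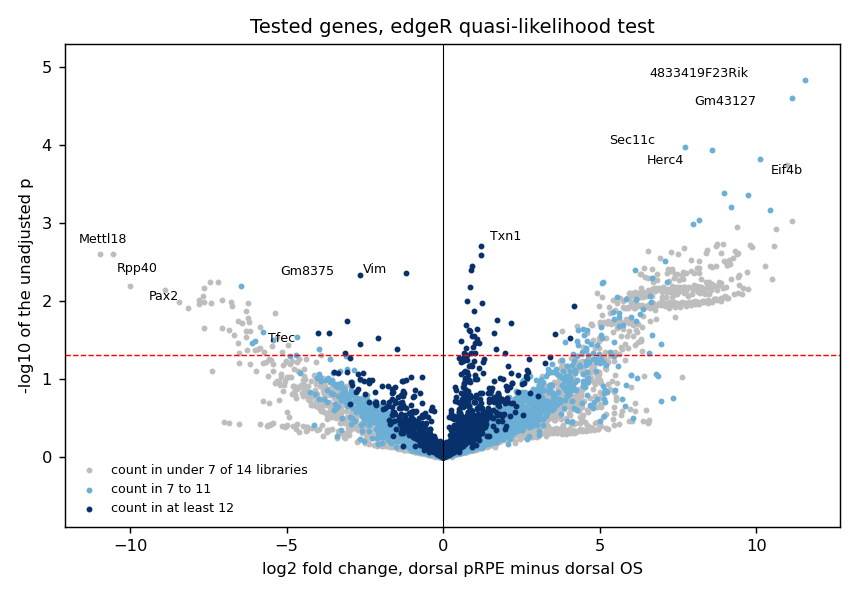
The log2 fold change of each of the 6646 tested genes (x axis, pRPE minus OS) against -log10 of its unadjusted p of the edgeR test (y axis), coloured by the number of the 14 libraries with a count; the dashed red line marks the 0.05 level. Genes counted in under 7 libraries (grey) make up the wide arms, whereas genes counted in at least 12 libraries (dark blue), Txn1 and Vim among them, lie near the centre.

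The labelled tissues were set against their defining markers, and the table gave few of them. Tyr, Tyrp1 and Dct, the enzymes of melanin synthesis, and the pRPE factors Pax6 and Otx1 were listed at 0 in all 14 libraries, as were Sox9 and Hes1 of glial progenitors, Nefm of axons and the OS factors Vax1 and Vax2. Genes that nearly every cell uses, such as Actb and Eef1a1, were also listed at 0 in all 14 libraries (11 of 20 listed widely expressed genes). A 0 here is thus only what the table lists under a symbol. The cause was not tested, and rows with counts carry the same limit. Pmel, the melanosome fibre protein, had counts in 1 pRPE library and in no OS library. Otx2 had counts in 2 of 7 pRPE libraries, up to 19.1 CPM, and in 1 of 7 OS libraries, at 68.5 CPM in distal replicate 83.

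Of the 32 pigment genes of the list, 18 had a count in at least 1 of the 14 libraries, 11 were tested and 0 were called, with 0 at an unadjusted p under 0.05 in either direction (edgeR quasi-likelihood test). Their median log2 fold change was 0.78, beside 0.42 over all tested genes, and 0.48 beside -0.17 with detected genes as a covariate. Slc45a2, the transporter that keeps the melanosome's pH, had 306, 654 and 1612 CPM in pRPE (lowest, median, highest). In OS it had 0, 1294 and 305 CPM in distal, 571 and 139 CPM in middle and 3.18 and 149 CPM in proximal libraries. Thus 2 of the 7 OS libraries, distal replicate 63 and middle replicate 34, lay inside the pRPE range, distal replicate 83 lay just under it, and distal replicate 33 had no count (log2 fold change 1.16 ± 1.07, standard error, adjusted p = 1 in edgeR).

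Gpnmb, a glycoprotein of the melanosome, had 6.16, 430.3 and 1065 CPM in pRPE. It had 158, 768 and 317 CPM in distal OS, 4.5 and 82.9 in middle OS and 0.454 and 162 in proximal OS. The lowest pRPE library (proximal replicate 2) was at the level of the lowest OS libraries, and the 3 distal OS libraries, middle replicate 84 and proximal replicate 65 lay inside the pRPE range (log2 fold change 1.57 ± 1.13, edgeR adjusted p = 1). Slc7a11, the cystine carrier that shifts melanin towards the red-yellow form, had 20.4 to 155 CPM in pRPE and 20.9 to 101 CPM in OS, with all 7 OS libraries inside the pRPE range. Trpm1, the channel whose intron holds Mir211, ran the other way in its medians, with 32.4 CPM in pRPE and 111 CPM in OS, and its ranges overlapped (9.4 to 244 and 1.46 to 242 CPM). Oca2, the melanosome chloride channel, was counted in 6 of 7 pRPE and 4 of 7 OS libraries. The motors Myo5a and Myo7a, which move melanosomes, were counted in 7 of 7 and 7 of 7 pRPE libraries and in 4 of 7 and 7 of 7 OS libraries. Hps6, a subunit of the sorting complex BLOC-2, stayed at or under 6 counts in each of the 14 libraries.

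To show the regulatory sequence of this group, the 250 bases before a start site of 3 pigment genes counted in all 14 libraries are printed from RefSeq (GRCm38.p6), with letters that match CATGTG or its reverse complement CACATG, a core bound by Mitf, or TAATCC or its reverse complement GGATTA, a core bound by Otx factors, in capitals. Gpnmb (chr6:49036268-49036517, plus strand) held no match. Trpm1 (chr7:64153585-64153834, plus strand) held 1 of each, at -141 and -34 from that start site. Its other RefSeq window (chr7:64185209-64185458) held no match to these cores, and other cores were not searched. Slc7a11 (chr3:50443614-50443863, minus strand) held 1 CATGTG at -74. Myo7a, also counted in all 14 libraries, has a window with no match and a window with 2 matches to CACATG, which are not printed.
Gpnmb: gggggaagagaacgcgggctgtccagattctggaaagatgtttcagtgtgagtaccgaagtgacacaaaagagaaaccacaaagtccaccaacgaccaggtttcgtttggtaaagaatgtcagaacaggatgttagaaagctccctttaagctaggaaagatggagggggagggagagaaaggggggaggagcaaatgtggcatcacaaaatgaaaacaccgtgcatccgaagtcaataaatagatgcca
Trpm1: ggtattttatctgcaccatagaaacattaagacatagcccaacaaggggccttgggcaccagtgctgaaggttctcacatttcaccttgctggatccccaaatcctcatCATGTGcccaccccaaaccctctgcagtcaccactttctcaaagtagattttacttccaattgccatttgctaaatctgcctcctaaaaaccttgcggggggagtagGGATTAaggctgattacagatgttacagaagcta
Slc7a11: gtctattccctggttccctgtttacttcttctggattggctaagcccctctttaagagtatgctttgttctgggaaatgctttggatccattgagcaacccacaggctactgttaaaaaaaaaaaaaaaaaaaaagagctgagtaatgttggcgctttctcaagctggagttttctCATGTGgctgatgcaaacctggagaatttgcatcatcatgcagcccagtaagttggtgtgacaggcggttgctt
Of 32851 windows of 250 bases before RefSeq start sites, 12.3% held CATGTG or CACATG and 6.25% held TAATCC or GGATTA, on either strand and counting no overlap between the 2 motifs.

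Of the 11 listed pRPE transcription factors, 6 were tested, 2 with a log2 fold change above 0 and 4 below. Their median was -1.97, beside 0.42 over all tested genes, and -4.2 beside -0.17 with detected genes as a covariate. At an unadjusted p under 0.05 (edgeR), 0 were higher in pRPE and 1 higher in OS, where 7.01% and 0.903% of all tested genes were. Mitf, the pigment cell regulator, was counted in 6 of 7 libraries of each tissue. It had 0, 47.3 and 227 CPM in pRPE, against 49.7, 148 and 111 in distal, 0 and 30 in middle and 34.1 and 3.04 CPM in proximal OS. The 3 distal OS libraries lay above the pRPE median, and both tissues had a library without a count (log2 fold change 0.73 ± 1.43, edgeR adjusted p = 1). Tfec, a factor of the Mitf family, was counted in 3 of 7 pRPE libraries, all 3 of them distal, at 3.5, 258 and 59.3 CPM, and in 7 of 7 OS libraries. Its OS values were 61.7, 378 and 161 CPM in distal, 233 and 729 CPM in middle and 121 and 167 CPM in proximal libraries. The 4 proximal pRPE libraries had no Tfec count, while 2 of the 3 distal ones lay near or inside the OS range (log2 fold change -3.97 ± 1.80, unadjusted p = 0.0411, adjusted p = 0.549 by edgeR's quasi-likelihood test). Yap1, the Hippo pathway co-activator that RPE cells need, was counted in 6 of 7 libraries of each tissue, and its partners Tead1 and Tead2 in 3 and 4 pRPE and in 4 and 6 OS libraries.

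The 28 listed genes of the RPE epithelium gave 8 tested genes, 0 of them called, 0 higher in pRPE and 2 higher in OS at an unadjusted p under 0.05, where 7.01% and 0.903% of all tested genes were. These were Trpm3, a cation channel of the RPE, and Clic6, a chloride channel protein. Clic6 was counted in 1 pRPE library and in 2 distal OS libraries, at 823 CPM in replicate 33. Trpm3 had 74.1, 243 and 599 CPM in pRPE and 954, 1199.6 and 2717 CPM in distal, 700.5 and 747 CPM in middle and 89.9 and 273 CPM in proximal OS. The 5 distal and middle OS libraries lay above every pRPE library, and the 2 proximal ones lay inside the pRPE range (log2 fold change -1.49 ± 0.67, unadjusted p = 0.0412, adjusted p = 0.549, edgeR). Cdh3, a cadherin of the RPE sheet, was counted in all 14 libraries, with 132 to 375 CPM in pRPE and 134 to 346 CPM in OS. Slc16a8, the lactate carrier of the RPE, was counted in 6 of 7 pRPE and 2 of 7 OS libraries, and Serpinf1, a factor that RPE cells secrete, in 7 of 7 and 5 of 7.

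**Figure D3:**
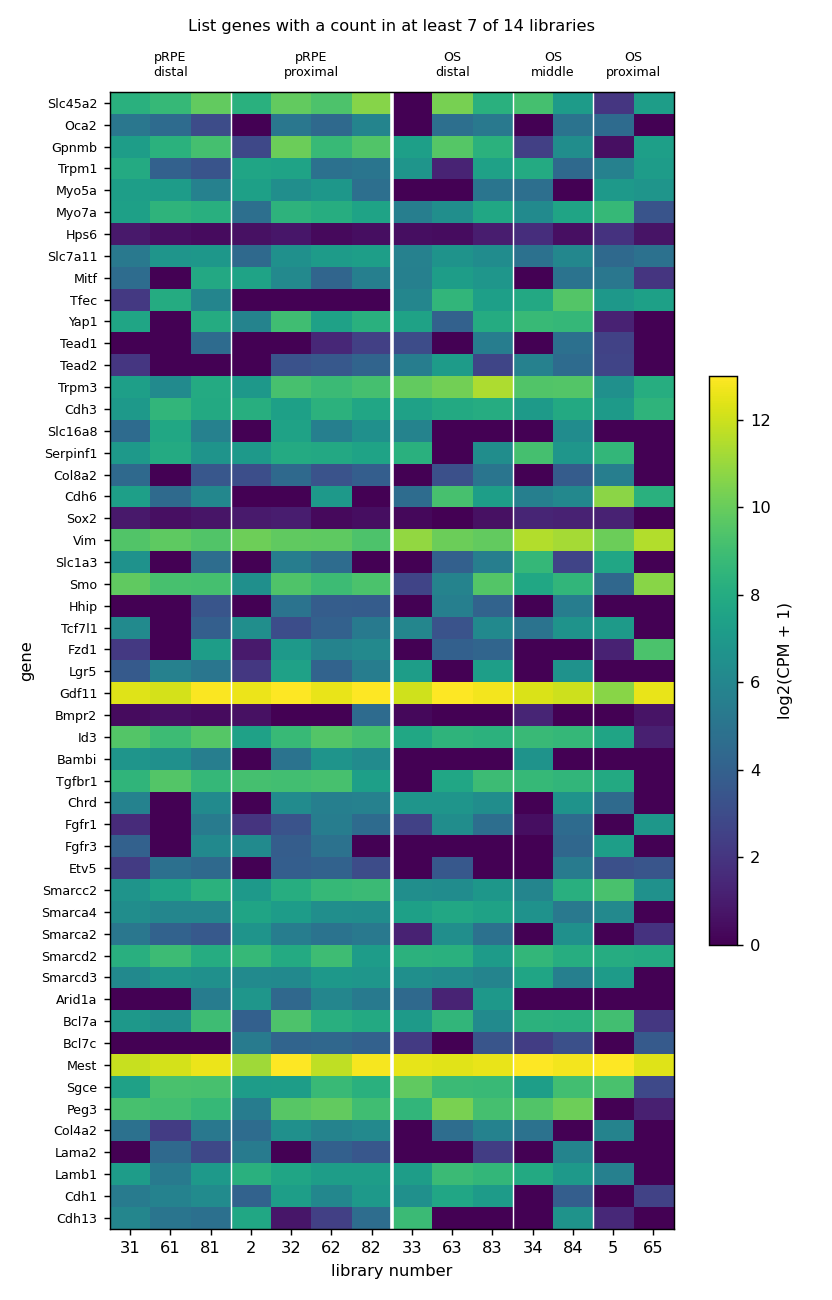
Level of the pigment, pRPE, stalk, glial, signalling, BAF, imprinted, basement membrane and cadherin list genes with a count in at least 7 of the 14 libraries (rows), as log2(CPM + 1) on the colour scale, in each dorsal library (columns, by library number), grouped by tissue and section; the thick white line parts pRPE from OS. Dark cells are values at or near 0 and lie in both tissues; Gdf11 and Mest are bright in all 14 libraries, and Tfec is at 0 in the 4 proximal pRPE libraries.

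The list of stalk and ventral genes had 16 members, of which 2 were tested. Pax2 is a factor of stalk cells and astrocyte progenitors that does not mark the whole stalk early on. It had no count in 6 of 7 pRPE libraries and 4 counts in replicate 82. There was no count in the 3 distal OS libraries, 406 and 182 counts (152 and 81.6 CPM) in the middle and 9 and 206 counts (4.09 and 62.6 CPM) in the proximal ones. The distal OS was thus like the pRPE in its Pax2 counts, and each middle and proximal library was higher than all pRPE libraries. The log2 fold change was -7.66 ± 2.59 (unadjusted p = 0.00874, adjusted p = 0.229 by edgeR's quasi-likelihood test over libraries that share embryos). With at most 4 counts in pRPE, Pax2 passed the filter only through OS, so its p-value is no support for a difference. Cdh6, the other tested member, is a cadherin. It was counted in 4 of 7 pRPE libraries, up to 159.6 CPM, and in 7 of 7 OS libraries, with 23.3, 595 and 156 CPM in distal, 48 and 66.3 CPM in middle and 1707 and 304 CPM in proximal OS. The 2 proximal OS libraries exceeded every pRPE library, as did distal replicate 63, while the 2 middle ones lay inside the pRPE range (log2 fold change -2.85 ± 1.51, unadjusted p = 0.0768, edgeR).

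Of the 16 glial progenitor genes, 5 were tested, of which 0 were higher in pRPE and 2, Vim and Nfia, higher in OS at an unadjusted p under 0.05. Over all tested genes these shares were 7.01% and 0.903%. Vim had a log2 fold change of -1.18 ± 0.36 (unadjusted p = 0.00435, adjusted p = 0.229, edgeR's quasi-likelihood test), and -1.108 and -1.105 within batch A and batch B. Nfia, a factor that starts gliogenesis, had a log2 fold change of -6.69 ± 2.78, with counts in 1 of 7 pRPE and 3 of 7 OS libraries. Its difference rests on few libraries. Nfia could not have passed the filter through pRPE, so its place in the count of 2 is no support for a change of the list. Sox2, the neural progenitor factor, stayed at or under 4 counts in each library and was not tested. Slc1a3, the glutamate carrier of astrocytes and their progenitors, was counted in 4 of 7 pRPE libraries, up to 99.5 CPM, and in 5 of 7 OS libraries, up to 398 CPM in middle replicate 34.

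**Figure D4:**
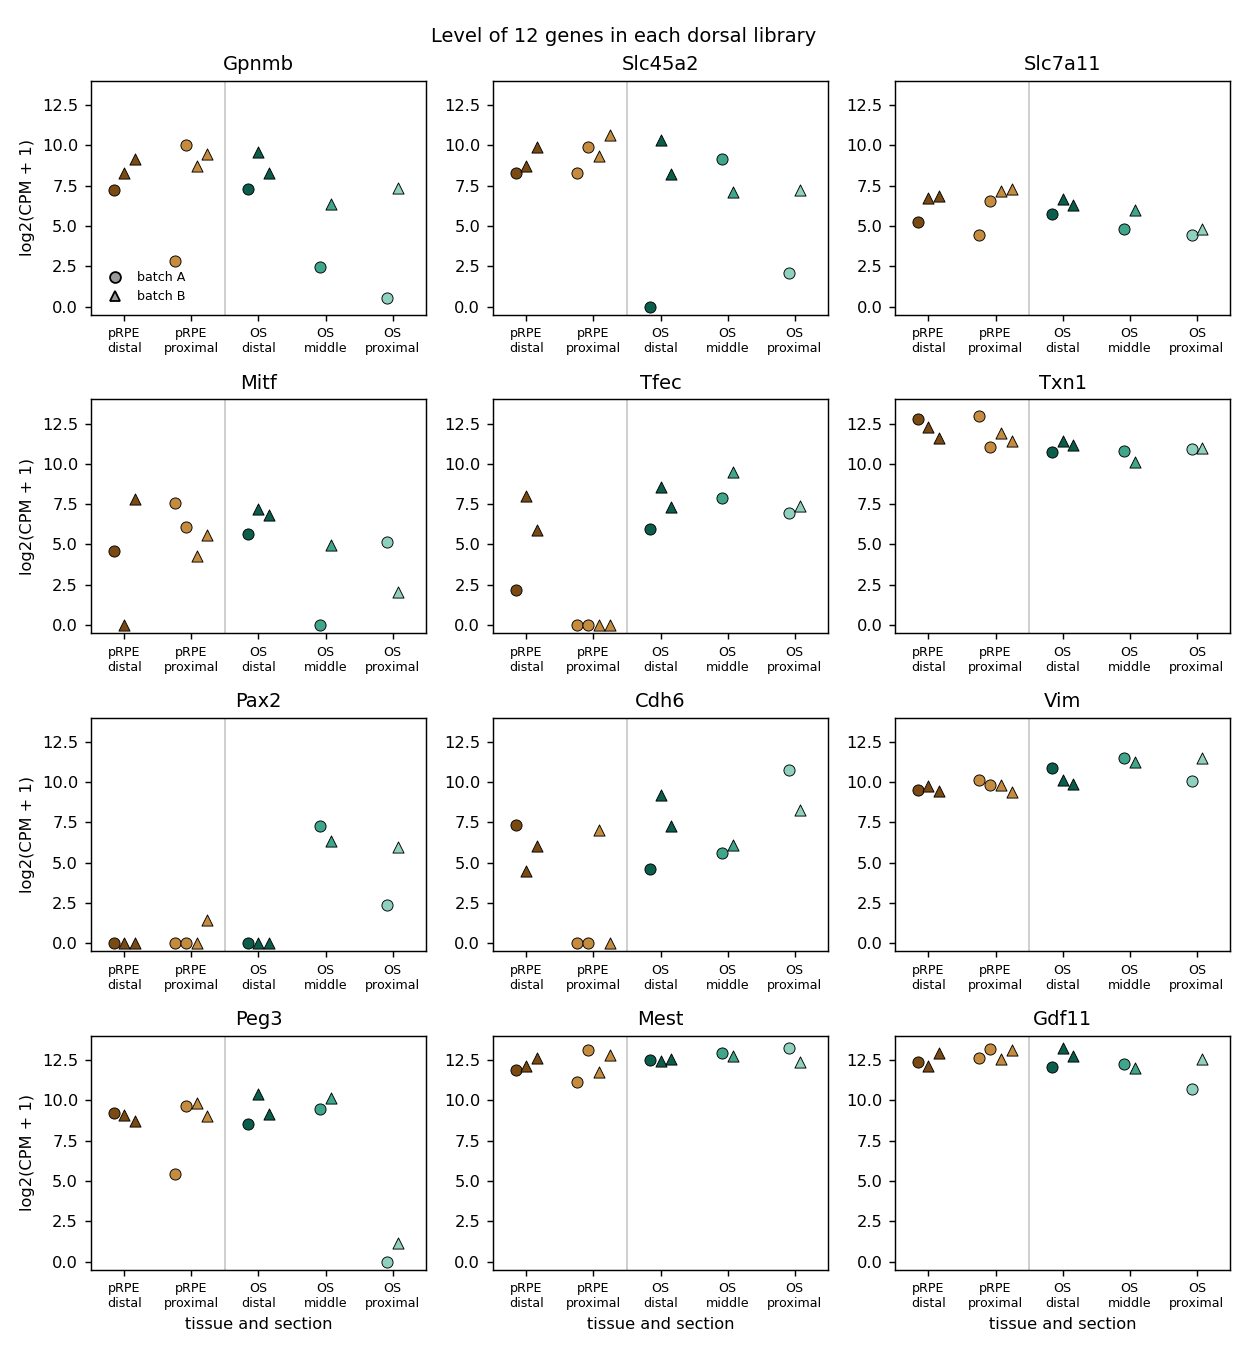
Level of 12 genes as log2(CPM + 1) (y axis) in each library by tissue and section (x axis), with circles for batch A and triangles for batch B. Pax2 is at 0 in the distal OS and above all pRPE libraries in the middle and proximal OS, Peg3 is at or near 0 in the 2 proximal OS libraries, and the mean of Vim is higher and that of Txn1 lower in OS than in pRPE.

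Among signalling genes, the BMP and TGF-beta list had 9 tested members of 31, with 8 of 9 log2 fold changes above 0 (61.8% of all tested genes were), a median of 0.98 and 2 members higher in pRPE at an unadjusted p under 0.05, Gdf6 and Smad4. Of all tested genes 7.01% were. As neither had a count in OS, both passed the filter only through the pRPE libraries and had to differ. Their count, and the median and the number of positive values that include them, are thus no support for a change of the list. The other 7 members ranged from -0.43 (Chrd, which binds BMP ligands) to 6.87 (Bambi). Gdf6, a dorsal BMP ligand of the eye, was counted in 4 of 7 pRPE libraries, at 33.1, 5.59, 33 and 38.6 CPM, and in 0 of 7 OS libraries. Against a floor of 3 counts per OS library its mean was at least 13.8-fold higher in pRPE (edgeR unadjusted p = 0.00654, adjusted p = 0.229). Smad4, the shared effector of these ligands, was counted in 3 of 7 pRPE and 0 of 7 OS libraries. Bambi, a decoy receptor induced by BMP, was counted in 6 of 7 pRPE libraries, up to 108 CPM, and in 1 of 7 OS libraries, middle replicate 34, at 101 CPM (log2 fold change 6.87 ± 3.87, edgeR unadjusted p = 0.0933). Its log2 fold change was 0.43 within batch A, which holds that OS library, and 10.85 within batch B. Bambi too could not have passed the filter through OS. Id3, a direct BMP target, had 175, 583 and 759.9 CPM in pRPE and 1.22, 329 and 443 CPM in OS (lowest, median, highest). Proximal OS replicate 65, with 4 counts, lay far below the other 6 OS libraries, and the OS libraries did not reach the pRPE median. Gdf11, a ligand of the activin group, had 4586 to 9491 CPM in pRPE and 1648 to 9627 CPM in OS. It alone made up most of the summed level of this list.

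In the other pathway lists no member had an unadjusted p under 0.05. The Wnt list gave 5 tested of 26 (median log2 fold change -0.31), the Shh list 4 of 12 (median -0.18) and the FGF list 4 of 17 (median 0.66). With detected genes as a covariate these medians were -0.42, -2.51 and 0.52. Smo, the Shh signal transducer, had 88.7, 597 and 893 CPM in pRPE and 5.43, 54.5 and 728 CPM in distal, 217 and 371 CPM in middle and 19.1 and 1675 CPM in proximal OS, where replicate 65 was the highest of all 14 libraries and replicate 5 among the lowest. Tcf7l1, a Wnt effector and repressor, was counted in 6 of 7 libraries of each tissue. Fgfr1, an FGF receptor, was counted in 6 of 7 libraries of each tissue, up to 45.1 CPM in pRPE and 115 CPM in OS.

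Of 25 listed subunits of the BAF chromatin remodelling complex, 4 (Smarcd1, Smarce1, Phf10 and Ss18) were at 0 in all 14 libraries. Of the others 12 were tested, 0 had an unadjusted p under 0.05, and 11 of 12 had a log2 fold change above 0, beside 61.8% of all tested genes. Their median of 1.28, beside 0.42 over all tested genes, was 0.32 with detected genes as a covariate. Smarcc2 (Baf170) had 103, 269.5 and 463 CPM in pRPE and 60.4, 95.7 and 612 CPM in OS, and proximal OS replicate 5 was the highest of all (log2 fold change 0.46 ± 0.73, edgeR adjusted p = 1). Smarcc1 (Baf155) was counted in 3 of 7 libraries of each tissue, up to 53 and 34.8 CPM. Smarca4 (Brg1), the ATPase, had 60.6 to 189.6 CPM in pRPE and 0 to 218 CPM in OS, with no count in replicate 65.

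For the imprinted genes (5 tested of 14), the cadherins (3 of 8), the basement membrane genes (6 of 16), the proliferation genes (5 of 18) and the widely expressed genes (4 of 20), 0 members had an unadjusted p under 0.05, and their median log2 fold changes were -0.11, 0.41, 1.47, -0.13 and 0.91, beside 0.42 over all tested genes. With detected genes as a covariate they were -0.60, -0.03, 0.35, -0.48 and -1.89, beside -0.17, so the cadherins and the widely expressed genes changed sign. Mest, an imprinted gene of the hydrolase family, had 2233 to 9051 CPM in pRPE and 5252 to 9944 CPM in OS, with a log2 fold change of -0.35 ± 0.28. Ccnd2, the D-type cyclin of proliferating progenitors, was counted in all 14 libraries, with 92 to 1152 CPM in pRPE and 30.8 to 817 CPM in OS.

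As edgeR called no gene, the 5 genes of smallest unadjusted p in each direction with a mean of at least 20 counts and the same direction in both batches are described. None of them passed edgeR's threshold, while DESeq2 called 9 of these 10, all but Vim, and limma voom the 5 on the pRPE side. Of the 10, 5 had no count in 1 of the tissues. Higher in pRPE were 4833419F23Rik, a long intergenic noncoding RNA, Gm43127, an unclassified transcript, Sec11c, a subunit of the signal peptidase, Herc4, a ubiquitin ligase, and Eif4b, a translation initiation factor. Gm43127 (GRCm38 chromosome 9, 110893111 to 110895899, minus strand) overlaps Als2cl on the opposite strand, so with counting whose use of strand is not given in the sources used here its reads cannot be told from those of Als2cl. It had 35.1, 116 and 146 CPM in pRPE and no count in the 7 OS libraries, a mean at least 89.3-fold higher against the floor of 3 counts per library. For 4833419F23Rik the levels were 34, 106 and 487 CPM in pRPE and no count in OS, at least 123-fold, and at least 72.7-fold without the highest library, pRPE replicate 2. For Eif4b they were 12.8, 41.7 and 124 CPM and no count, at least 46.9-fold. These 3 genes passed the filter only through the pRPE libraries and had to differ, so their p-values are no support for a difference (adjusted p of the edgeR test 0.0824 for the first 2 and 0.199 for Eif4b). Sec11c had 37 to 329.7 CPM in pRPE and at most 2.27 CPM (5 counts) in OS. Herc4 had 33.4 to 579.9 CPM in pRPE and at most 14.5 CPM in OS (72 counts, distal replicate 33). In any other OS library Herc4 had at most 2 counts. Sec11c and Herc4 thus also passed the filter only through pRPE, so their p-values are no support for a difference either. In these 5 genes, chosen for their small p, the tissues did not overlap, which the choice and the filter largely fix. The same held for 17 of 6646 tested genes higher in pRPE (0.256%) and for 1 higher in OS (0.015%; Polr2g, a subunit of RNA polymerase II, named after its values were seen).

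Higher in OS were Mettl18, a histidine methyltransferase, Rpp40, a subunit of RNase P, Vim, Gm8375, a processed pseudogene, and Gprasp1, a protein that sorts receptors. Mettl18 had no count in pRPE and 105, 0 and 0 CPM in distal, 0 and 25.6 CPM in middle and 174 and 303 CPM in proximal OS, a mean at least 79.6-fold higher in OS against the floor of 3 counts per library. Without the highest library, proximal replicate 65, it was at least 46.5-fold higher. Rpp40 also had no count in pRPE and was counted in 4 OS libraries, up to 629 CPM in proximal replicate 65, at least 104-fold by the same floor and at least 26-fold without that library. Neither gene could have passed the filter through pRPE, so a difference was fixed by the filter. Gprasp1 was counted in 1 of 7 pRPE libraries, at 5.4 CPM, and in 5 of 7 OS libraries, up to 253 CPM. It too could not have passed the filter through pRPE. Gm8375 was counted in all 14 libraries, with 15.2 to 70.2 CPM in pRPE and 20.1 to 713 CPM in OS. A processed pseudogene shares sequence with its parent gene, so its reads are uncertain. The 2 lowest OS libraries (distal replicates 33 and 63) lay inside the pRPE range.

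Among genes with a count in at least 12 of the 14 libraries, those described on the pRPE side, by their small unadjusted p, were the 7 genes Txn1, Ubxn8, Naa40, Klf16, Purb, Ces4a and Dennd1b. Txn1 had 2100.2, 3867 and 8156 CPM in pRPE and 1108, 1932 and 2757 CPM in OS. Its log2 fold change was 1.20 ± 0.33 (unadjusted p = 0.00195, adjusted p = 0.229 by edgeR's quasi-likelihood test over libraries that share embryos). The ranges overlapped, as distal OS replicates 63 and 83 lay above the lowest pRPE library (proximal replicate 32). Ubxn8, a helper of protein degradation at the endoplasmic reticulum, Naa40, which acetylates histones at their N terminus, and the DNA-binding proteins Klf16 and Purb had log2 fold changes of 0.92, 0.88, 0.85 and 0.77, with standard errors of 0.27, 0.27, 0.28 and 0.27. Ces4a, a carboxylesterase, was the one of these 7 whose tissues did not overlap, with 564 to 1237 CPM in pRPE and 175 to 523 CPM in OS (adjusted p = 0.229, edgeR). Dennd1b, a regulator of endocytosis, had exactly 1 count in each OS library and from 1 to 132 counts in pRPE, so its ratio rests on single counts.

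On the OS side the 8 were Vim, Gm8375, Hspa2, Wars1, Sema6b, Rian, Casd1 and Trpm3. Rian, an imprinted noncoding RNA, had 1.77, 187 and 373 CPM in pRPE and 297, 244 and 850.5 CPM in distal, 1022 and 1257 CPM in middle and 369 and 396 CPM in proximal OS, and the 2 middle libraries were highest (log2 fold change -2.08 ± 0.88, unadjusted p = 0.03, edgeR). Hspa2, a chaperone of the Hsp70 family, had 1.66 to 62.1 CPM in pRPE and 0 to 381 CPM in OS, where distal replicate 63 had no count and the other 6 lay above every pRPE library (edgeR adjusted p = 0.313, DESeq2 adjusted p = 0.0281). Sema6b, a semaphorin that guides axons, was counted in 5 of 7 pRPE and 7 of 7 OS libraries and was highest in proximal replicate 65, at 1607 CPM against at most 211 CPM in pRPE. Wars1, a tryptophan tRNA ligase, and Casd1, a sialic acid acetyltransferase, were also highest in that library, at 827 and 1414 CPM.

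With the OS split into its sections, in 1 model of 4 levels, 0 genes were called for any section against pRPE. The edgeR quasi-likelihood test gave 546 genes higher in pRPE (8.22%) and 53 higher in OS (0.797%) at an unadjusted p under 0.05 for the distal section. The same counts were 134 (2.02%) and 107 (1.61%) for the middle and 546 (8.22%) and 84 (1.26%) for the proximal section. Single libraries moved these counts. Without OS replicate 33 or 63 the distal section had 188 or 194 genes on the pRPE side, and without pRPE replicates 62, 81 or 82 it had 338, 321 or 322. Without OS replicate 63 it had 89 on the OS side. Without OS replicate 34 the middle section had 29 and 62, and without pRPE replicate 2 it had 68 on the OS side. Without OS replicate 65 the proximal section had 198 and 126, and its OS side had 46 without OS replicate 5 and 47 without pRPE replicate 2. DESeq2 called 306, 344 and 1052 genes for the 3 sections and limma voom 31, 35 and 101. The median log2 fold change over all tested genes was 0.54 for the distal, 0.44 for the middle and 4.13 for the proximal section, whose 2 libraries had 4135 and 2693 detected genes. It was 2.26 for the distal section without OS replicate 83, 3.41 for the middle without OS replicate 84, and 0.28 without OS replicate 34. It was 7.32 for the proximal without OS replicate 5. With detected genes as a covariate the 3 medians were -0.07, 0.50 and 0.73. When the mean of distal and middle OS was set against proximal OS, 0 genes were called, with 398 (5.99%) higher in distal and middle and 243 (3.66%) higher in proximal OS at an unadjusted p under 0.05, while DESeq2 called 911 and limma voom 24. The 398 became 156 without OS replicate 65 and 252 without OS replicate 84. The 243 became 98 without OS replicate 34, 123 without OS replicate 5 and 378 without OS replicate 83. The smallest adjusted p by edgeR was 0.0687, for Peg3 and for Pgap4, a gene of GPI anchor assembly that was named after its values were seen. Among fits that left out 1 library, the counts of called genes changed most without proximal replicate 5: with replicate 65 alone for the section, 74 genes were called for proximal OS against pRPE and 73 between the sections.

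Peg3, an imprinted zinc finger protein, had 372, 1323 and 578 CPM in distal and 711 and 1117 CPM in middle OS, but no count in proximal replicate 5 and 4 counts in replicate 65. In pRPE it had 43.1, 537 and 931 CPM. The 2 proximal OS libraries thus lay below all 12 other libraries, and over all sections together the log2 fold change was -0.01 ± 1.10. Pgap4 had no count in the 2 proximal OS libraries and from 151 to 6184 counts in the other 12. For Pax2 the log2 fold changes of pRPE minus OS were -10.05 and -6.79 for the middle and proximal sections (unadjusted p = 0.0012 and 0.00636, edgeR). None is given for the distal section, which had no count. Pax2 passed the filter only through middle and proximal libraries, so these p-values are no support for a difference. The test of distal and middle against proximal OS gave an adjusted p of 0.534 for Pax2 (edgeR quasi-likelihood test).

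The ventral libraries of the same study (7 ventral pRPE and 9 ventral OS) share no library with the dorsal ones, though they came from the same 4 embryos, and were put through the same comparison. In them 0 of 6130 genes were called, and 564 (9.2%) were higher in pRPE and 288 (4.7%) higher in OS at an unadjusted p under 0.05 (edgeR quasi-likelihood test). Of these 7 widely counted genes on the pRPE side, 7 were above 0 in the ventral libraries too, where 64.3% of widely counted genes were. Naa40 among them had an unadjusted p of 0.0123. Of the 8 on the OS side, 5 were below 0. Vim had a ventral log2 fold change of -1.14 (unadjusted p = 0.0429) beside -1.18 in the dorsal libraries. Trpm3 went the other way, with 5.09 in ventral libraries (unadjusted p = 0.0339). The 5 genes of smallest p on the pRPE side all had ventral log2 fold changes above 0. Eif4b was counted in 3 of 7 ventral pRPE and 0 of 9 ventral OS libraries, Sec11c in 5 and 2, Herc4 in 3 and 4, Gm43127 in 3 and 2 and 4833419F23Rik in 1 and 1. Sec11c had a ventral log2 fold change of 6.72 (edgeR adjusted p = 0.365), and Eif4b an adjusted p of 0.335 (edgeR). The ventral fit of 4833419F23Rik rests on 1 library of each tissue, and the OS one was the higher, at 1484 CPM against 69.5 CPM. The difference between the dorsal and the ventral tissue effects was tested as an interaction, which called 0 genes (472 and 598 at an unadjusted p under 0.05, in favour of dorsal and ventral; smallest adjusted p 0.0749, edgeR), so that no difference in tissue effect was shown.

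**Figure D5:**
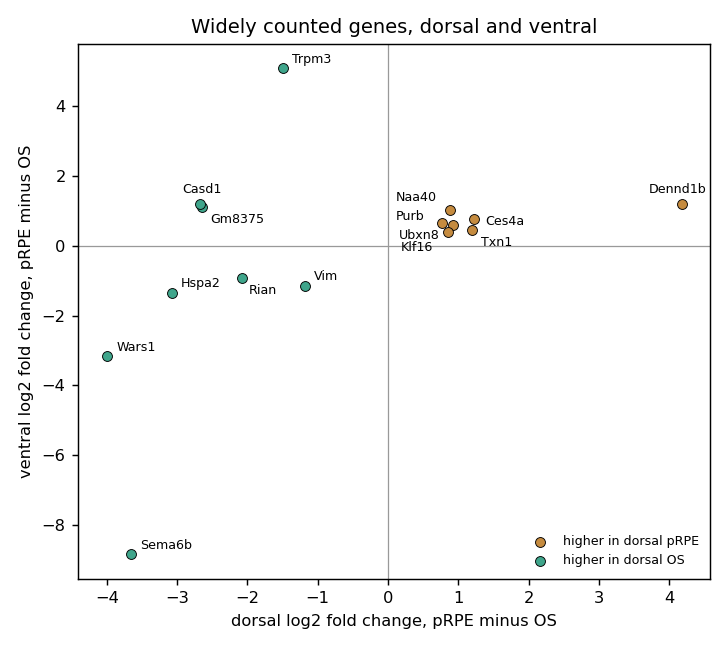
Log2 fold change of pRPE minus OS in the dorsal libraries (x axis, the values by which the genes were chosen) against that in the ventral libraries (y axis) for 15 widely counted genes. The 7 genes higher in dorsal pRPE lie above 0 in the ventral libraries, and of the 8 higher in dorsal OS 5 lie below 0, with Trpm3 furthest to the other side.

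Some markers of other cell types were counted in both tissues, and their part in the differences was not tested. The mesenchyme list had 15 genes, 9 of them listed at 0 in all 14 libraries, among them Foxc1 and Twist1. It summed to 26.9 to 1063 CPM in pRPE and 0 to 257 CPM in OS, and was highest in pRPE replicates 61 and 62. Of its 4 tested members, 3 had a log2 fold change above 0 and 1 below. At an unadjusted p under 0.05 (edgeR), 2 were higher in pRPE and 0 in OS, where 7.01% and 0.903% of all tested genes were. Their median was 3.35, beside 0.42 over all tested genes, and 1.65 beside -0.17 with detected genes as a covariate. Lmx1b, a member and a factor of periocular mesenchyme, was counted in 4 of 7 pRPE libraries and in 0 of 7 OS libraries. It passed the filter only through pRPE and had to differ. The number above 0 and the median that include it are thus no support for a change of the list. The neural retina list (10 genes) summed to 0.441 to 64.8 CPM in pRPE and 0 to 78.4 CPM in OS (the last in middle replicate 84). Of its 2 tested members, 1 had a log2 fold change above 0 and 1 below. Rax, the eye field factor among the 10, was counted in 5 of 7 pRPE and 0 of 7 OS libraries, and 4 of the 10 were listed at 0. Rax too passed the filter only through pRPE and had to differ. For the neuron and axon list (11 genes, 7 at 0) the sums were 54.8 to 134 and 4.5 to 140 CPM. They were, for neural crest and melanocytes, 0 to 238 and 0 to 327 CPM, for endothelium 24.9 to 287 and 0 to 216 CPM. The sums were, for macrophages, 0 to 27.1 and 0 to 214 CPM (the last in proximal replicate 5), for blood 0 to 60.4 and 0 to 62.1 CPM and for lens and surface ectoderm 3.53 to 21.7 and 0 to 34.5 CPM.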

How the data were processed

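Tissue was cut by laser from cryosections of E12 heads, and cDNA was amplified with KAPA, made into Nextera XT libraries and sequenced. Per the study's methods and labels, the authors aligned reads with HISAT2 to GRCm38 and used StringTie. The counting program and annotation release are not given in the sources used here. The table deposited by the authors holds estimated counts (expected counts) per gene symbol, not normalized, for 30 libraries. In it 270 values in 63 genes are not whole, and all were rounded before testing. Of the symbols, 49086 of 56484 match GENCODE M21 names. Amplified reads are not independent molecules, so counting floors cover counting error only.

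The members and gene lists were chosen with earlier results of these data known. Genes with more than 10 counts in at least 3 of the 14 libraries were tested with edgeR 4.0.16 (R 4.3.3): TMM normalization, quasi-likelihood test, batch as covariate, Benjamini-Hochberg adjustment over all tested genes. A gene was called where its log2 fold change was beyond 0.58 at an adjusted p under 0.05. Section contrasts came from 1 fit with pRPE and the 3 OS sections as levels. CPM is a gene's count relative to the library's effective size, which is its summed counts multiplied by its TMM factor. In the dorsal libraries this factor ranged from 0.571 (pRPE replicate 31) to 1.295 (pRPE replicate 61), so CPM is not a share of the library's total. A fold against a tissue without counts used a floor of 3 counts per library. Library measures were compared by two-sided exact permutation tests (scipy 1.17.1). The script was tested on simulated counts. Promoter windows are from RefSeq, GRCm38.p6.

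Named are the genes the study names for these tissues; the 5 genes of smallest unadjusted p in each direction with a mean of at least 20 counts and one direction in both batches, since none was called; the 8 of smallest unadjusted p in each direction among genes with a count in at least 12 libraries; and list members with a count in at least 7 libraries. One widely counted gene is not reported here. Alternatives were DESeq2 1.42.0, limma voom 3.58.1, other scalings, filters and covariates, each batch alone, the proximal OS left out, Fisher's exact test on detection and each library left out in turn. A filter of at least 12 libraries and the ventral and interaction fits were added after the data were seen. The labels do not tie libraries to embryos, and the study's sample metadata table, which gives a mouse ID, was not used here, so p-values measure the spread between libraries, which may be technical in part.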

Additional observations from a re-analysis of the deposited data

Results flagged for a closer look

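For each dorsal library measure and each gene picked by the rules for named genes, members of the gene lists included, with a count in at least 12 of the 14 libraries, the highest and the lowest of the 7 libraries of a tissue were set against the other 6, gene levels as log2(CPM + 1) and library measures on their own scale. In 17 of 98 such groups the gap to the nearest library exceeded Dixon's critical limit, as a share of the whole range; chance alone gives about 1 in 20 groups. No cause was tested for any of them.

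In dorsal pRPE, proximal replicate 2 stood below the others for Gpnmb (6.16 CPM), Myo7a (25.6 CPM), Smo (88.7 CPM), Id3 (175 CPM) and Peg3 (43.1 CPM); it had 3427 detected genes, the fewest of the pRPE. Distal replicate 61, with 3643 detected genes, stood below the others for Lamb1, a laminin chain of the basement membrane (37.96 CPM), and for Yap1 (0 CPM).

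In dorsal OS, proximal replicate 65 stood below the others for Id3 (1.22 CPM), for the BAF subunits Smarca4 (0 CPM), Smarcd3 (0 CPM) and Bcl7a (3.34 CPM), for the imprinted sarcoglycan gene Sgce (6.38 CPM) and for Lamb1 (0 CPM); it had 2693 detected genes, the fewest of the 14 libraries. Distal replicate 33 stood apart by its total of 5400977 counts and by a low Ccnd2 (30.8 CPM), distal replicate 63 by Hspa2 (0 CPM), and distal replicate 83 by the BAF subunit Smarcd2 (139.5 CPM).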

How the results depend on the processing

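The edgeR count of 0 genes called between dorsal pRPE and dorsal OS held with TMMwsp or DESeq2 size factors, the detected-genes covariate, no mitochondrial genes, all 30 libraries, each batch alone, no proximal OS, Fisher's exact test on detection and the filter of at least 12 libraries. It was 110 with DESeq2, 41 with limma voom, 20 with no filter and 2 (4833419F23Rik and Gm43127) with filterByExpr, with counts in at least 7 libraries or with no batch term; neither has a dorsal OS count, so both pass each filter only through pRPE. Leaving out 1 library gave 0 to 1 genes: Herc4 without OS replicate 33 and Rfx2, named after its values were seen, without OS replicate 83. Herc4 also passed the filter only through pRPE. For the distal section DESeq2 called 306 and limma voom 31. For the middle section DESeq2 called 344, limma voom 35, no filter 2 and the filter of at least 12 libraries 3. For the proximal section DESeq2 called 1052, limma voom 101, no filter 26, the filter of at least 12 libraries 29, and leaving out 1 library 0 to 74, with 74 without OS replicate 5 and 1 each without pRPE replicates 2 and 31. Between the sections DESeq2 called 911, limma voom 24, no filter 21, filterByExpr 3, counts in at least 7 libraries 3, more than 10 counts in 3 of the 30 libraries 2 and the filter of at least 12 libraries 24. Leaving out pRPE replicate 2 or 31 called 1 each, and leaving out 1 OS library 0 to 73, with 73 without OS replicate 5. The lone proximal library was then assumed to vary like the other groups. Which genes the tools share was not counted, and the cause of these differences was not tested.

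The labels give the tissues no shared replicate numbers. With the number block of the library names as a replicate block, 0 genes were called between the tissues and 1, Peg3, both for the proximal section and between the sections. Each block held at most 1 library of a tissue and section. Deviations of libraries of different tissues correlated at a mean of 0.0345 within a block (13 pairs) and -0.0073 between blocks of a batch (12 pairs). Correlations this weak cannot decide whether a block stands for an embryo, and the main fit left the libraries unpaired.

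Of 2399 values of the 79 tested named genes under the alternatives, 2265 stayed within 1 standard error on the same side of the threshold, 102 moved and 32 passed the threshold in the same direction; DESeq2 called Pax2, Bambi, Hspa2 and 9 of the 10 genes of smallest p (all but Vim), and limma voom called Tfec and the 5 of these on the pRPE side. Over all alternatives 43 genes kept their sign throughout and 36 took the other sign in at least 1 alternative. The difference in detected genes stayed positive, from 1377 to 2629 without 1 library. Of the values of tested genes 41.7% were 0, and the common dispersion was 5.06; what part depth has in this was not tested. Thinning each library to 1767804 counts left a difference of 1790 detected genes. The fold bounds without the highest library were added after the data were seen.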
